A study of Caenorhabditis elegans with 2 samples.

Results

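The effector genes of the AIY interneurons were examined in a ChIP-seq experiment on the transcription factor TTX-3. The list held 9 genes, sra-11, ser-2, kal-1, hen-1, unc-17, cho-1, mod-1, flp-18 and glc-3, of 19973 nuclear protein-coding genes in the annotation. They were taken by name, as terminal genes of AIY, and not by their values in these data, although earlier results of these data were known. The samples were 2 biological replicates of hermaphrodite late embryos of Caenorhabditis elegans strain OP68, whose genotype is unc-119(ed3) III; wgIs68. Both carried the same transgene, which makes TTX-3 with a GFP-FLAG tag at its C terminus, and both were collected 4 hours after synchronization by egg bleaching. Chromatin was sonicated and recovered with an antibody against GFP. There was no second condition, so no test between groups was possible, and each count stands beside the same count over other genes or over all peaks.

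AIY is a pair of interneurons that receives input from thermosensory and chemosensory neurons. TTX-3, a LIM homeodomain protein, works with the paired-type homeodomain protein CEH-10 as a terminal selector of AIY: the factors together switch on genes that give the neuron its transmitter, its receptors and its secreted proteins. The list covers these classes. unc-17 encodes the vesicular acetylcholine transporter and cho-1 the choline transporter of the nerve terminal. ser-2 encodes a tyramine receptor, mod-1 a serotonin-gated chloride channel, glc-3 a glutamate-gated chloride channel, and sra-11 a seven-transmembrane receptor of a chemoreceptor family. flp-18 encodes FMRFamide-like neuropeptides, hen-1 a secreted protein with an LDL receptor motif that acts in sensory integration, and kal-1 the worm ortholog of anosmin-1, an extracellular matrix protein. Whole embryos were used, in which AIY is a pair among all cells, and peak lists carry no measure of the cell type.

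For each gene, the window ran from 5000 bp upstream of its most upstream 5' end to the end of the gene. Peak summits were read from the authors' pooled list of 30000 regions, from the lists of 30000 regions of each replicate, and from the authors' final list of 700 regions, kept by their filter on the irreproducible discovery rate (IDR) and named optimal by them. Regions were ranked by the authors' peak signal, rank 1 being the strongest. The signal has no stated scale between lists, so signals were compared within a list only. The lists reach down to background, and sequencing depth is unknown because they hold no read counts.

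Of the 9 genes, 8 had at least 1 summit of the pooled list in the window (88.9%, exact 95% interval 51.8% to 99.7%), with 40 summits in all. Only ser-2 had an optimal summit (1 of 9, 11.1%, 0.281% to 48.2%). These intervals cover counting error only. Among all protein-coding genes 73% had a pooled summit and 6.45% an optimal one. Among the 9825 genes whose span was within 20% of the span of a listed gene, the shares were 74% and 6.62%. Longer genes have longer windows, and the median span was 4837 bp for the 9 genes and 2027 bp for all genes. When the share was taken separately for the genes similar to each listed gene and then averaged over the 9, it was 82.3%. The count of 8 of 9 was near this background, as was that of 1 of 9.

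**Figure D1:**
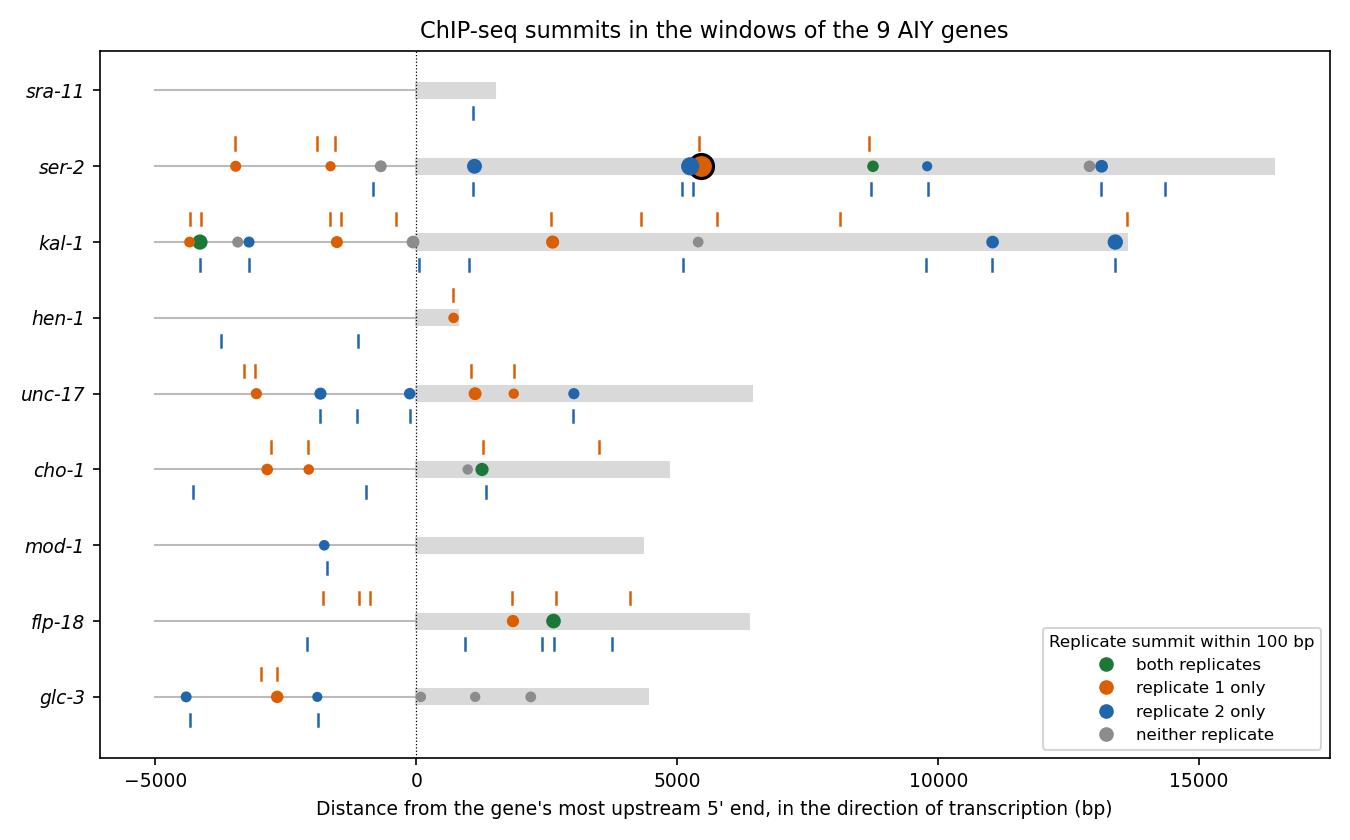
Positions of summits relative to the most upstream 5' end of each gene, in bp, with the gene as a grey bar and 5000 bp upstream as a line. Points are the 40 pooled summits, with area proportional to signal and colour for replicate support, and ticks above and below are the summits of the replicate 1 and replicate 2 lists. The outlined point is the optimal peak in ser-2, and sra-11 has no pooled summit.

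The 40 summits were spread over the pooled list. Their median signal was 25.6, against 26.9 in the whole pooled list, and 17 of the 40 (42.5%) lay above that median. Of the 40, 6 (15%) ranked among the strongest 5000 regions, which make up 16.7% of the list, with 3 of them in ser-2, 2 in kal-1 and 1 in flp-18. By position, 18 were upstream of the genes, all between annotated protein-coding genes. The other 22 were inside the genes, with 17 in introns, 3 in coding exons, 1 in a 5' UTR and 1 in a 3' UTR. For 33 of the 40, the nearest 5' end of a protein-coding transcript belonged to the listed gene itself. Among these, the 3 upstream of unc-17 were nearly as close to the 5' end of cha-1. The deposited −log10 q-value was 1.51 at the optimal ser-2 summit and 1.05 at the ser-2 summit of rank 933. At every other summit it was 0.306 or lower. Those summits are entries of a list that reaches down to background, and a place in it does not by itself show binding.

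**Figure D2:**
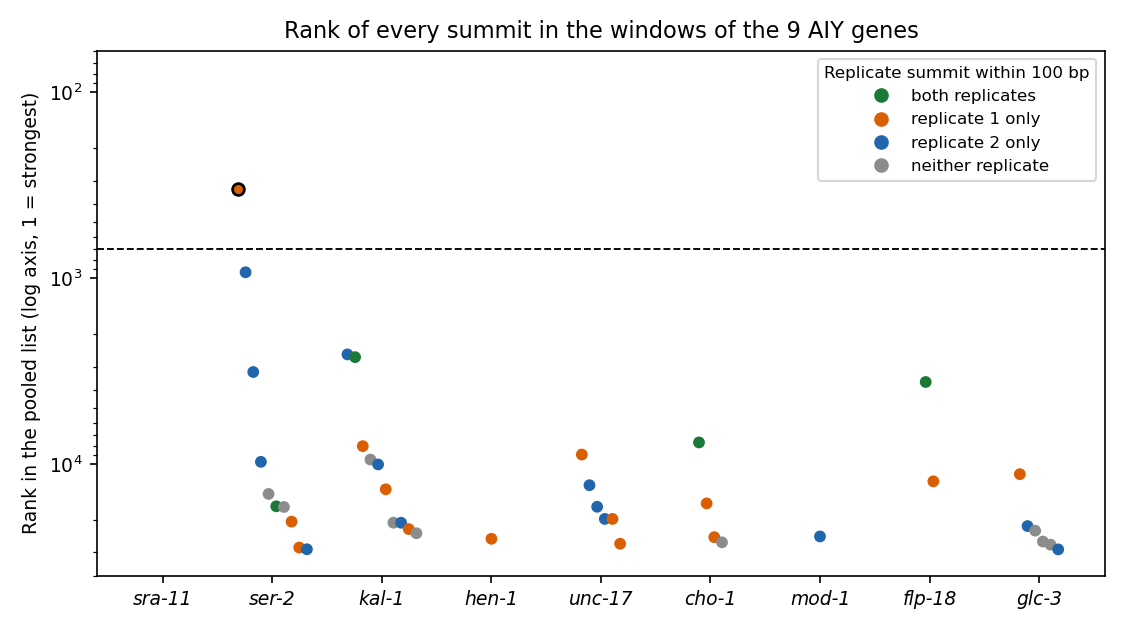
Rank of each pooled summit by gene, on a log axis with the strongest regions at the top, and the dashed line at rank 700, the size of the optimal list. The ser-2 summit of rank 333 is above the line, and the next best, of rank 933, is also in ser-2.

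The receptor gene ser-2 held the strongest site. ser-2 lies on chromosome X from 15286533 to 15302963 on the minus strand, with 7 transcripts and 5 distinct 5' ends, and its window held 10 pooled summits. The optimal peak (chrX:15297290-15297739, signal 111, rank 333) was in an intron, 5448 bp downstream of the most upstream 5' end and 708 bp downstream of the nearest 5' end of a shorter transcript. A second pooled region, not optimal, overlapped it (chrX:15297490-15297939, signal 64.1, rank 933), with its summit 508 bp downstream of that same 5' end. Each replicate placed its own strongest ser-2 summit between these. In replicate 1 the signal there was 53.3 at rank 424, with the summit 41 bp from the optimal one. In replicate 2 it was 50.2 at rank 390, with the summit 142 bp from the optimal one and 58 bp from the second. The ranks were thus similar in the replicate lists, while the distance of 142 bp exceeded the 100 bp used here to call a summit shared.

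A tRNA gene lay at this site. C02D4.t1, annotated as a tRNA-Ile gene, occupies chrX:15297471-15297544 on the plus strand, opposite to ser-2. It was the only tRNA gene inside the windows of the 9 genes. The optimal summit was within it, 44 bp from its 5' end. The replicate 1 summit lay 12 bp beyond the 3' end of the tRNA gene, the replicate 2 summit 113 bp beyond, and the second pooled summit 171 bp beyond. The optimal summit was the single 1 of the 40 (2.5%, exact interval 0.0633% to 13.2%) with a tRNA gene within 100 bp, against 1.08% of nuclear regions in the pooled list. Among nuclear tRNA genes 27.1% had an optimal summit within 100 bp. Those optimal summits numbered 165, with a median signal of 125, and 106 of them were stronger than the ser-2 site. With summits at tRNA genes left out, 0 of the 9 genes had an optimal summit (exact upper limit 33.6%), against 5.37% of all protein-coding genes. Among the 348 genes of a span similar to ser-2, 11.8% had an optimal summit, 10.1% had an optimal summit away from tRNA genes, and 4.6% had a summit of rank 333 or better.

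**Figure D3:**
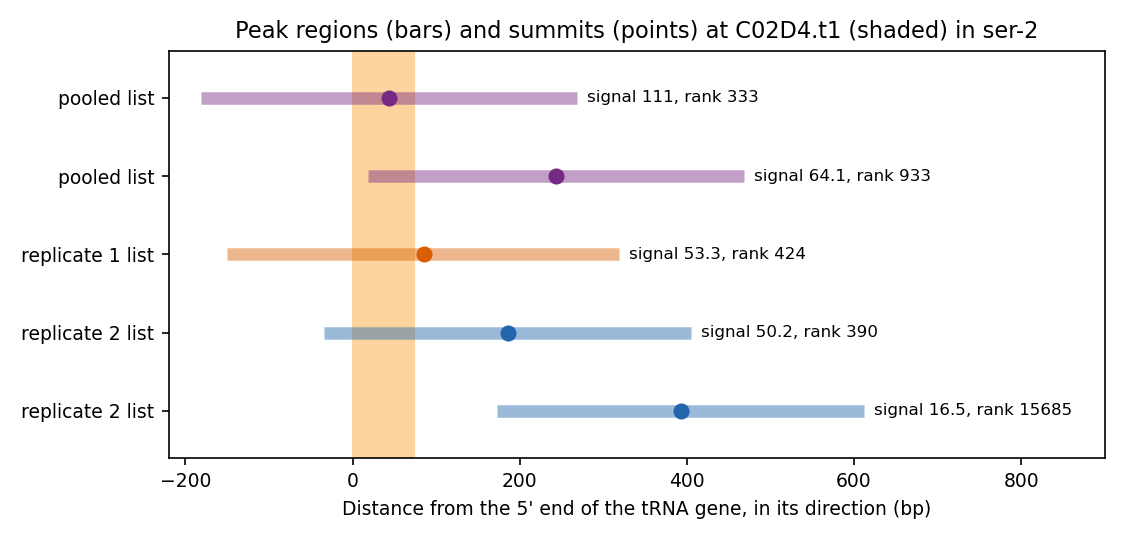
Regions (bars) and summits (points) of the pooled and replicate lists, in bp from the 5' end of the tRNA gene C02D4.t1, which is shaded. The pooled summits are at 44 and 244 bp, and the strongest summits of replicates 1 and 2 are at 85 and 186 bp, between them.

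The 74 bp sequence of C02D4.t1 was identical to that of 18 other tRNA-Ile genes, of which 9 are on chromosome X. A pooled summit lay within 100 bp of 11 of these 18 copies and an optimal summit within 100 bp of 5. The latter is near the share over all nuclear tRNA genes, 27.1%, and the share of all nuclear tRNA genes with a pooled summit is not given here. How reads that match several copies were placed is not given in the sources used here, and its part in the signal at ser-2 was not tested. The stretch around the second summit is outside the tRNA gene and occurs once in the genome, and is shown because it is the part of the ser-2 region of rank 933 around the summit, free of tRNA sequence, although the region itself overlaps the tRNA gene. It covers 50 bases to each side of the summit, chrX:15297665-15297765 on the minus strand, from the RefSeq sequence of WBcel235, and neither homeodomain core described below was found in it.
ser-2: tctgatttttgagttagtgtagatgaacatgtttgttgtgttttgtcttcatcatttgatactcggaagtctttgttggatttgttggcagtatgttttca

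The other 8 pooled summits of ser-2 had signals from 19.9 to 42.7. The strongest (rank 3210) was in the intron 1114 bp downstream of the most upstream 5' end. Replicate 2 had a summit 33 bp away with signal 34.6 at rank 988, and replicate 1 had none within 1000 bp. The summit nearest upstream (682 bp from the 5' end, signal 27.3, rank 14537) had no replicate summit within 100 bp, the nearest of replicate 2 being 142 bp away. A single ser-2 summit, 8750 bp into the gene (signal 25.7, rank 16940), had a summit of both replicates within 100 bp, at ranks 22439 and 19417. Away from the tRNA gene no ser-2 summit ranked among the 700 strongest regions.

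The other receptor genes had few or weak summits. mod-1 (chromosome V, 8909704 to 8914040) had 1 pooled summit, 1765 bp upstream, with signal 21.7 and rank 24605. Replicate 2 had a summit 57 bp away at rank 8970, and replicate 1 had no summit in the whole window. glc-3 (chromosome V, 5449275 to 5453715) had 6 pooled summits with signals from 19.8 to 29.8. Its strongest lay 2667 bp upstream (rank 11375) and was at the same position in replicate 1 (signal 22, rank 5099), with no replicate 2 summit within 100 bp. The glc-3 summit in the 5' UTR, 86 bp from the 5' end (signal 21, rank 26205), and both of its intron summits had no summit of either replicate within 1000 bp. sra-11 (chromosome II, 10908808 to 10910319) had no pooled summit. Its window held a single summit of replicate 2, in an intron 1084 bp downstream of the 5' end (signal 14.9, rank 20314), and none of replicate 1.

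Both acetylcholine genes carried pooled summits, with best ranks of 8924 in unc-17 and 7679 in cho-1. unc-17 (chromosome IV, 3618259 to 3624699) had 6, with signals from 20.7 to 32.1, of which 3 were upstream and 3 in introns. It shares its 5' region with cha-1, which encodes choline acetyltransferase, and all 3 intron summits were in introns of both genes. From the strongest of them the 5' end of cha-1 was 1123 bp away and that of unc-17 1125 bp. The 3 upstream summits thus lay upstream of both genes, and none of the 6 can be given to either gene alone. The strongest, 1125 bp downstream of the 5' end (rank 8924), was found 78 bp away in replicate 1 (signal 25, rank 3228) and not in replicate 2. The summit 127 bp upstream of the unc-17 5' end (signal 25.6, rank 17036) was found 13 bp away in replicate 2 (signal 12.7, rank 28096) and not in replicate 1. In all, 3 unc-17 summits were found in replicate 1, the other 3 in replicate 2, and 0 in both. cho-1 (chromosome IV, 13209730 to 13214566) had 4. Its strongest lay in a coding exon 1258 bp downstream of the 5' end (signal 33.6, rank 7679) and had a summit in both replicates, 15 bp away at rank 29347 in replicate 1 and 83 bp away at rank 8248 in replicate 2. The 2 upstream summits of cho-1, at 2063 and 2858 bp, were found in replicate 1 alone.

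Of the genes for secreted proteins, flp-18 (chromosome X, 3012182 to 3018555) had a summit in an intron that both replicates listed. It lay 2628 bp downstream of the most upstream 5' end, with signal 41.3 and rank 3632. Replicate 2 had its summit at the same position (signal 20.2, rank 8325) and replicate 1 had its summit 47 bp away (signal 13.6, rank 20466). The second pooled summit of flp-18, in an intron 1851 bp downstream (signal 28.9, rank 12434), was found in replicate 1 alone. Upstream of flp-18 the pooled list had none, while replicate 1 had summits at 884, 1105 and 1793 bp and replicate 2 had a single summit at 2103 bp, none within 100 bp of a summit of the other replicate. hen-1 (chromosome X, 7116202 to 7116996) had 1 pooled summit, in its 3' UTR (signal 21.3, rank 25334), found 14 bp away in replicate 1 (signal 16.1, rank 13498). Replicate 2 had none there, and listed upstream summits at 1109 and 3745 bp, at ranks 27698 and 24250.

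LIM and paired-type homeodomain proteins bind cores such as TAATTA and TAATTG. Each was searched on both strands within 50 bp of the summit, and the cores can overlap each other, which they did not at the summit that held both. TAATTA was found at 2 of the 40 summits (5%, exact interval 0.611% to 16.9%), against 6.73% of nuclear regions in the pooled list, and TAATTG at 3 (7.5%, 1.57% to 20.4%), against 8.77%. Both shares were near the background. The flp-18 summit of rank 3632 held both cores, and it is shown because it is also the strongest flp-18 site with a summit in both replicates. The upstream cho-1 summit of rank 16342 held TAATTG on the opposite strand, and the glc-3 summit of rank 21641, 4411 bp upstream and found in replicate 2 alone, held TAATTA. The third TAATTG was at the kal-1 summit of rank 2580, the strongest of the summits with a core, whose sequence is not shown. The 3 stretches of flp-18, cho-1 and glc-3, with 50 bases to each side of the summit, are given 5′ to 3′ on the minus strand, on which the genes are transcribed, from the RefSeq sequence of WBcel235, with the cores in capitals. They lie at chrX:3015877-3015977, chrIV:13217374-13217474 and chrV:5458076-5458176.
flp-18: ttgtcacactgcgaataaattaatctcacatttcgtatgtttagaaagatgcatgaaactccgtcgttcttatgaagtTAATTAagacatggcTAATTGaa
cho-1: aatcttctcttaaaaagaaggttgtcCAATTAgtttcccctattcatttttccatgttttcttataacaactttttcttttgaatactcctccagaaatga
glc-3: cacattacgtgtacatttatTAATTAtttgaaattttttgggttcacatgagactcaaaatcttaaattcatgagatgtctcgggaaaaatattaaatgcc

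Across the whole windows of the 9 genes TAATTA occurred 61 times, and 2 of these lay within 50 bp of a pooled summit. The 40 summit stretches covered a small part of the 103785 bp of windows, and the number of copies that placement alone would put in them was not computed. Counts of copies near a summit are therefore not read as few or many. The windows held 5.88 copies per 10 kb, against a median of 4.85 per 10 kb over the windows of all protein-coding genes. flp-18 (10.6 per 10 kb) and sra-11 (9.21) had the highest densities and hen-1 (1.73) the lowest. ser-2 had 12 copies in its window and 0 near a summit. The median GC content of the 40 summit stretches was 32.7%, as over all nuclear regions of the pooled list. The stretch at the tRNA gene in ser-2 had 50.5%, and 3 of the 40 stretches had at least that, the others being the ser-2 summit 682 bp upstream (57.4%) and a kal-1 intron summit (50.5%).

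kal-1, on chromosome I from 14128591 to 14142207, had as many pooled summits as ser-2 (10) but none optimal. Its signals ran from 22.1 to 45.2. The strongest (rank 2580) lay in a coding exon 13393 bp downstream of the 5' end, near the 3' end of the gene, and held TAATTG within 50 bp. Replicate 2 had its summit at the same position (signal 34.2, rank 1045), and the nearest replicate 1 summit was 215 bp away (signal 16.7, rank 12299). The next (signal 44.8, rank 2669) was intergenic, 4147 bp upstream, and was the kal-1 summit found in both replicates, 19 bp away in replicate 1 (signal 18.5, rank 9096) and 1 bp away in replicate 2 (signal 27.2, rank 2604). The summit closest to the kal-1 promoter, 64 bp upstream (signal 31.5, rank 9494), had its nearest replicate summits 329 and 107 bp away, with signals of 22 and 24.6. The remaining kal-1 summits were found in a single replicate or in neither.

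Support by the replicates was counted at each summit. Of the 40 pooled summits, 4 (10%, exact interval 2.79% to 23.7%) had a summit of both replicates within 100 bp, 1 each in ser-2, kal-1, cho-1 and flp-18. The share over all nuclear regions of the pooled list was 22.4%, and 20.7% outside the optimal list, both inside that interval. Replicate 1 alone had a summit at 14 of the 40, replicate 2 alone at 13, and neither at 9, the last against 17% of the pooled list. Taken from the replicate side, replicate 1 listed 32 summits in the windows of 7 genes and replicate 2 listed 34 in the windows of all 9. In each replicate list 4 of these had a summit of the other replicate within 100 bp (12.5% and 11.8%), against 22.3% of all nuclear regions of each list. When overlap of the regions was asked for in place of 100 bp between summits, 11 of the 40 (27.5%) had a region in both replicates, against 48.2% of nuclear regions in the pooled list. By each of these measures the share found in both replicates was lower at the listed genes than over the lists. The measures rest largely on the same sites and are not separate evidence. None was set against summits of similar rank or in windows of genes of similar span. No interval was computed for the overlap share.

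In the number of summits, the 9 genes lay within the 5th to 95th percentile of genes of similar span. The 5th percentile was 0 for each of the 9, so no count could lie below this range. The count was above the median of those genes for 5 (ser-2, kal-1, unc-17, cho-1 and glc-3), equal to it for hen-1, and below it for 3 (sra-11, mod-1 and flp-18). glc-3 was highest in its range, with 6 summits against a median of 3, and 13% of its 2232 similar genes had as many or more. unc-17 had 6 against a median of 3 (24.4% as many or more), kal-1 10 against 7 (25.7%) and ser-2 10 against 8 (37.4%). At the other end, mod-1 had 1 against a median of 3, and 31.8% of similar genes had as few or fewer. For sra-11, 35.3% of similar genes also had 0. The glc-3 count was not matched by the replicate lists, which held 2 summits each in its window, and the low flp-18 count was not either, with 6 and 5.

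**Figure D4:**
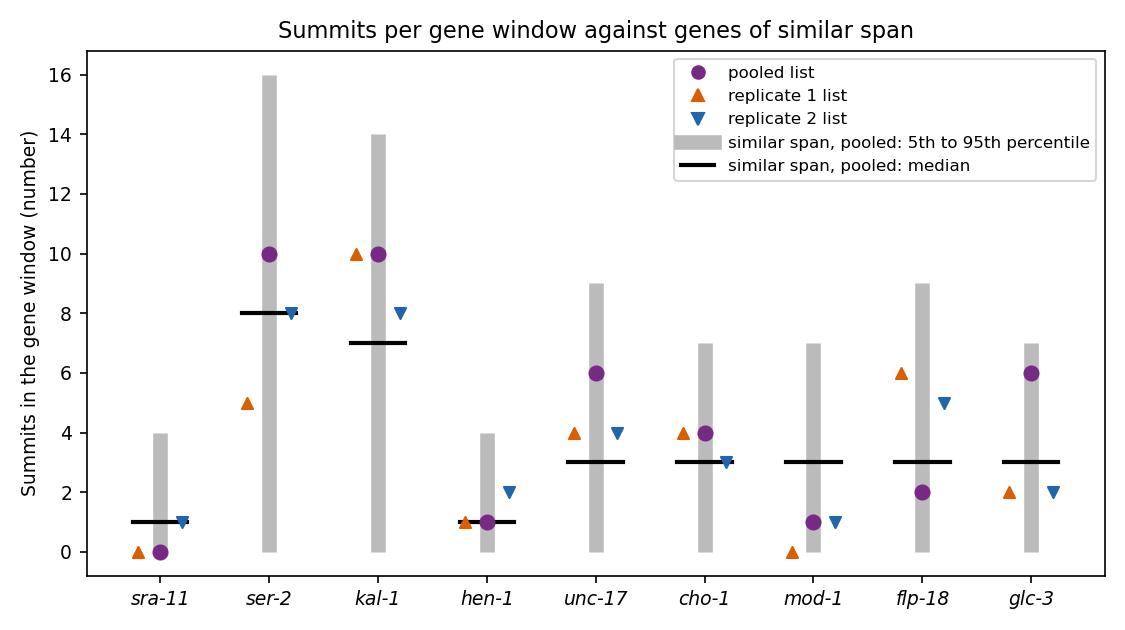
Number of summits in the window of each gene in the pooled list (circles) and the replicate lists (triangles). Grey bars span the 5th to the 95th percentile, and black lines mark the median, of the pooled counts of protein-coding genes whose span is within 20% of that gene's. All 9 pooled counts lie inside the grey bars, each of which starts at 0, so that no count could lie below.

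Near the promoters, from 1000 bp upstream to 300 bp downstream of any 5' end of a protein-coding transcript, 4 of the 9 genes (kal-1, ser-2, unc-17 and glc-3) had a pooled summit (44.4%, exact interval 13.7% to 78.8%). The share of all protein-coding genes was 39.9%. The unc-17 summit in this count lay upstream of cha-1 as well.

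Other genes of the same pathways were listed by name, with earlier results of these data known. They were counted in the same windows, in which 73% of all protein-coding genes had a pooled and 6.45% an optimal summit. These lists were not compared with genes of similar span. Of the regulators of AIY (ttx-3, ceh-10 and ceh-23), 2 of 3 had a pooled summit and 1 an optimal summit, in an intron of ttx-3 (signal 141, rank 207). The nearest summits of replicates 1 and 2 had signals of 78.5 and 69.5, and their distances from the ttx-3 summit are not given here. No tRNA gene lay within 100 bp of the ttx-3 summit, unlike at the ser-2 site. Both samples carried the transgene that makes tagged TTX-3, and its part in the signal at ttx-3 was not tested. All 5 other acetylcholine genes (cha-1 and ace-1 to ace-4), all 13 other amine receptor genes and all 6 other ligand-gated chloride channel genes had a pooled summit, and 0 of them an optimal one. Because cha-1 shares intron and upstream summits with unc-17, its count is not separate from that of unc-17. Of the 30 other FMRFamide-like peptide genes, 19 had a pooled summit and 1, flp-23, an optimal one. The flp-23 summit (signal 119, rank 293) lay 294 bp upstream with a tRNA gene within 100 bp, as in ser-2.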

How the data were processed

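The authors deposited peak lists on ce11, which has the coordinates of WBcel235. Per the deposited file descriptions, the list of each replicate was made from its alignments and a control, the pooled list from both, and the optimal list from these by IDR. How alignment, peak calling and IDR were run is not given in the sources used here. Signal as deposited is the authors' peak strength, with no stated scale between lists. The deposited −log10 q-value was not used for ranking, and the summit offset was used as deposited. Depth is unknown. The ce10 lists were not used here.

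Summits were placed on the Ensembl 115 annotation (nuclear protein-coding genes), with windows, distances and span limits as given in the text. No test was run, since there was 1 group, and intervals are exact (Clopper-Pearson). The members and lists were chosen by name, with earlier results of these data known. No rule on values in these data picked the members. All 9 members were named with their summits, and genes of the other lists only where they had an optimal summit. Counting was tested on simulated data, where the number of summits per gene window was recovered for 200 of 200 genes. The true numbers were taken with the same window definition, so this checks the look-up of summits and not the definition of the window. Python 3.11.15, numpy 2.4.6, scipy 1.17.1 and matplotlib 3.10.9 were used.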

Additional observations from a re-analysis of the deposited data

How the results depend on the processing

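Of the 9 genes, 8 had a pooled summit, and 6 to 9 with other upstream lengths, lists and ways to assign a summit to a gene, while 4 had one in the promoter window, an alternative chosen after seeing the data. The number with an optimal summit was 0 upstream of the genes and 0 without summits at tRNA genes (also chosen after seeing the data). Of the 40 summits, 18 were upstream and 17 were among the 15000 strongest regions. With overlapping regions merged, also an alternative chosen after seeing the data, the 40 became 35. The exact intervals over summits treat the 40 as separate and take no account of this overlap. The median per gene, 4, was 2 with 2000 bp upstream, 2 for the upstream part and 1 for the 15000 strongest. The best rank was 2669 upstream. Summits found in both replicates, 4, numbered 2 within 50 bp, 7 within 200 bp and 11 by region overlap. Those with a tRNA gene, 1, numbered 2 within 200 bp, and 0 to 1 when a replicate was left out. Those with TAATTA, 2, numbered 5 within 100 bp, 9 within 200 bp, and 1 to 5 when a replicate was left out. The mean share of genes of similar span with a pooled summit was 81.5% with a span within 10%, 80.1% within 50%, 67.9% for the 15000 strongest regions, and 85.6% to 86.6% in single replicate lists. The cause of these shifts was not tested. No paired analysis was possible because there was 1 group. Depth limits could not be judged, as the lists hold no counts.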

Other observations

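All 9 genes lie on the minus strand, as do 49.7% of protein-coding genes. Windows were set by strand for every gene, and the position of each summit relative to a 5' end is in the direction of transcription. Leaving out a replicate changed which genes had a summit: with the list of replicate 2 alone all 9 had one, sra-11 among them, and with that of replicate 1 alone 7 had one, without sra-11 and mod-1. Over all protein-coding genes 77.1% had a summit in the replicate 1 list and 78.4% in the replicate 2 list.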
